A study of Bos taurus with 8 samples.

Results

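MX1, MX2, RSAD2 and BST2 are antiviral effector genes switched on by interferon, and their transcripts were followed here in bovine blood cells after lipopolysaccharide (LPS), the cell wall component of Gram-negative bacteria. The members were found by gene symbol among the 21861 genes of the single-cell RNA tables. Of the 4 genes asked for, 3 were found: MX1 (ENSBTAG00000030913), MX2 (ENSBTAG00000008471) and RSAD2 (ENSBTAG00000016061). BST2, which encodes tetherin, is named in no row of those tables and is not analysed here. The same Ensembl identifiers were looked up in the chromatin accessibility tables, where all 3 were listed without LPS, at 2 h and at 4 h, and 2 of them at 8 h.

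The cells came from the blood of 4 Holstein cows, all female, lactating and 2 years old, which was pooled and then divided into 4 parts. A single part received no LPS, and the others were kept with LPS (2 µg/ml) over 2 h, 4 h and 8 h before mononuclear cells were isolated. Each part gave 1 single-cell RNA-seq (scRNA-seq) library and 1 single-cell ATAC-seq (scATAC-seq) library, so no group had a replicate and no test between treatments was possible. Every interval below is a 95% interval that covers counting error only, and treatment and library cannot be told apart. How long the part without LPS was kept is not given in the sources used here, so LPS and time in culture cannot be told apart either.

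The MX genes encode dynamin-like GTPases that assemble on incoming viral nucleocapsids and block their transport or copying. RSAD2 encodes viperin, a radical SAM enzyme that makes a chain-terminating nucleotide and so interrupts viral RNA synthesis. All of them are classical targets of type I interferon signalling, and LPS can start the same route by way of TLR4 in monocytes and macrophages. In the RefSeq gene order of the ARS-UCD2.0 assembly MX2 and MX1 are direct neighbours on chromosome 1, and RSAD2 lies on chromosome 11 next to CMPK2, a nucleotide kinase gene.

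After the limits on cells, the 4 libraries kept 7821, 9865, 7387 and 3411 cells in order of time, with median counts of 3997 to 4757 unique molecular identifiers (UMIs, each a single captured transcript) per cell. The paper reports fewer cells in each library after its own quality control, so the kept cells are not the same set. Of 30663 barcode sequences, 93 occurred in more than 1 scRNA-seq library. Cells were sorted into classes by raw UMIs of a single marker and none of the other 3: CD14 for monocytes (at least 2 UMIs), CD3E for T cells, MS4A1 for B cells and NCR1 for natural killer cells. The CD14 gate held 707 cells without LPS but 308, 117 and 66 at 2 h, 4 h and 8 h. The NCR1 gate held 38 to 97 cells, the CD3E gate 1550 to 4937 and the MS4A1 gate 663 to 2392. Of the 12 monocyte markers listed, 11 had their highest level in the CD14 gate, and 8 of 10 T cell, 9 of 10 B cell and 9 of 10 natural killer cell markers had theirs in the matching gate. SERPINA1 had no UMI in the CD14 gate. Cells with markers of several classes (5.60% to 12.7% of a library) or passing no gate (13.7% to 19.3%) were kept apart. Those passing no gate include cells with 1 CD14 UMI and no other of the markers. Their monocyte markers summed to 321 to 3233 CPM, against 9353 to 14115 CPM in the CD14 gate. Cells passing no gate also held natural killer cell markers at a sum of 1800 to 2421 CPM and plasma cell markers at 552 to 2324 CPM. Their T cell markers summed to 314 to 425 CPM and their B cell markers to 293 to 465 CPM.

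All 3 members were at their highest in the 4 h library when all kept cells were added up. In counts per 1000000 UMIs (CPM), and in the order no LPS, 2 h, 4 h and 8 h in which all series of 4 values are given, MX1 stood at 48.1, 140.3, 488 and 87.0 CPM. MX2 stood at 32.6, 43.1, 325 and 60.6 CPM. RSAD2 stood at 15.9, 26.8, 125 and 25.9 CPM. The counting intervals of the 4 h values did not overlap those of any other library for any member.

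The step to 2 h separated the members. MX1 was 2.92-fold higher at 2 h than without LPS (2.77 to 3.07), RSAD2 1.69-fold (1.53 to 1.86) and MX2 1.32-fold (1.23 to 1.42). MX1 was thus the only member at least 2-fold higher at 2 h on the scale of log2(CPM + 1) used for all such counts, and 0.938% of the 12150 genes compared were. Between 2 h and 4 h the order was turned around, with MX2 7.54-fold higher (7.20 to 7.90), RSAD2 4.67-fold higher (4.39 to 4.97) and MX1 3.48-fold higher (3.39 to 3.58). In that step MX2 had the largest log2 ratio of all 12077 genes compared, and 0.555% of them were at least 2-fold higher.

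Against the library without LPS, all 3 members were at least 2-fold higher at 4 h, as were 1.28% of 12060 genes. The log2 ratios were 3.32 for MX1, 3.28 for MX2 and 2.90 for RSAD2, which placed them sixth, seventh and eleventh among those genes. The members had median log2 ratios of 0.72, 3.28 and 0.84 at 2 h, 4 h and 8 h, beside medians of -0.03, 0.02 and 0.10 over all genes compared. None was at least 2-fold higher at 8 h, where 0.492% of 11778 genes were, although all 3 counting intervals of the fold lay above 1. From 4 h to 8 h MX1 was 5.61-fold lower (5.32 to 5.92), MX2 5.37-fold lower (5.03 to 5.73) and RSAD2 4.82-fold lower (4.37 to 5.33), and 0.557% of 11668 genes were at least 2-fold lower.

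MX1 and MX2 were foremost transcripts of the MS4A1 gate, whereas most RSAD2 UMIs came from the CD3E gate. The MS4A1 gate held 57.4%, 69.7%, 54.8% and 51.6% of all MX1 UMIs. It held 72.9%, 74.5%, 69.8% and 66.6% of all MX2 UMIs. The CD3E gate held 71.4%, 59.5%, 59.3% and 77.5% of all RSAD2 UMIs. These shares also follow the number of cells in each gate, so the levels within gates are given next.

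**Figure D1:**
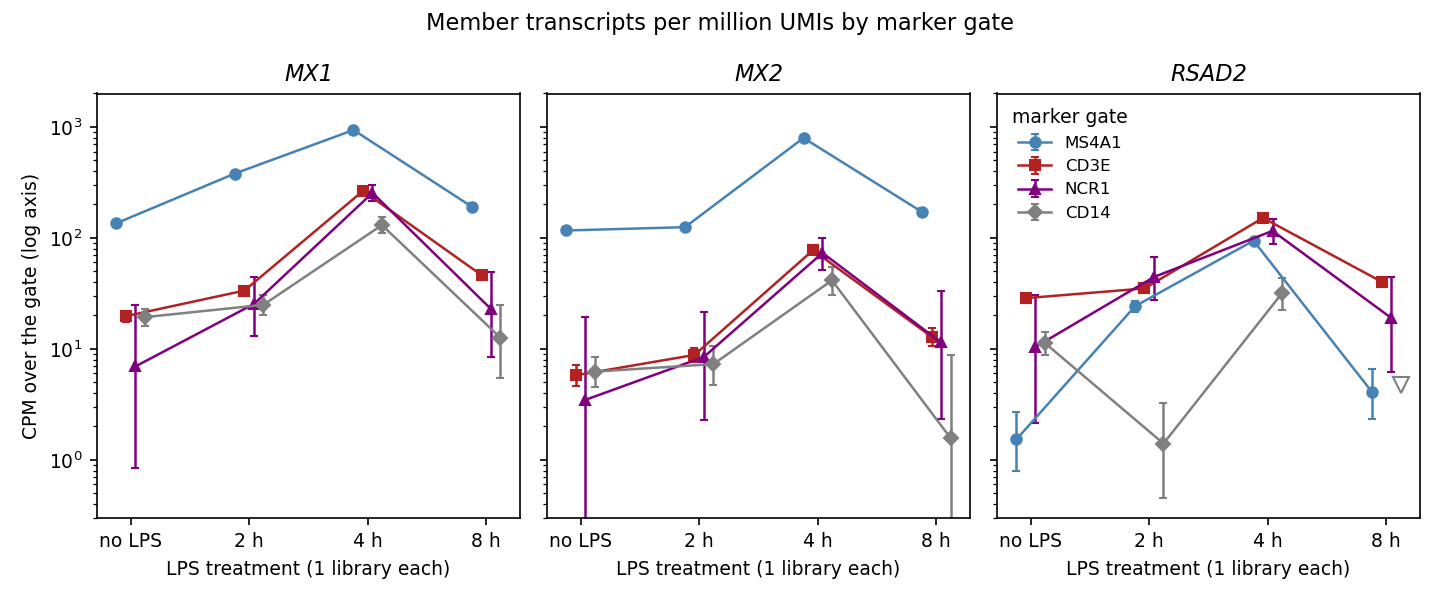
CPM of MX1, MX2 and RSAD2 (log axis) in the 4 marker gates, by LPS treatment, with 1 library per treatment; points are sums over the gate's cells, bars are exact Poisson 95% intervals, and the open triangle marks the limit of 4.71 CPM set by 3 counts for RSAD2 in the CD14 gate at 8 h, where no UMI was found. The MS4A1 gate lies above the other gates for MX1 and MX2 in every library, and RSAD2 in that gate goes from 1.53 CPM without LPS to 94.3 CPM at 4 h.

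MX1 in the MS4A1 gate was at 135, 380.2, 938 and 190.4 CPM. In the CD3E gate it was at 19.7, 33.5, 265 and 46.2 CPM. The MS4A1 gate was therefore higher in all 4 libraries, by 6.88-fold (6.04 to 7.84), 11.3-fold (10.5 to 12.3), 3.54-fold (3.42 to 3.66) and 4.12-fold (3.64 to 4.68). The NCR1 gate, with 2 to 132 MX1 UMIs, had 6.94, 25.4, 254 and 22.8 CPM, and its intervals overlapped those of the CD3E gate in every library. The CD14 gate had 19.3, 24.9, 130 and 12.6 CPM, which made it the lowest of the gates at 4 h.

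For MX2 the distance between B and T cells was wider. The MS4A1 gate was at 117, 125, 795 and 171 CPM, and the CD3E gate at 5.78, 8.81, 77.4 and 12.9 CPM. That is 20.2-fold (16.2 to 25.4), 14.2-fold (12.2 to 16.5), 10.3-fold (9.73 to 10.9) and 13.3-fold (10.8 to 16.5) higher in the MS4A1 gate. In the CD14 gate MX2 was at 6.24, 7.28, 41.4 and 1.57 CPM, the last from 1 UMI. In the NCR1 gate it was at 3.47, 8.46, 73.2 and 11.4 CPM, from 1, 4, 38 and 3 UMIs.

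RSAD2 had the opposite order without LPS. It was at 28.6 CPM in the CD3E gate and 1.53 CPM in the MS4A1 gate, an 18.7-fold higher level in T cells (10.6 to 36.5). At 2 h and 4 h the gates came close, with 35.0 and 151 CPM in the CD3E gate against 24.2 and 94.3 CPM in the MS4A1 gate, or 1.45-fold (1.26 to 1.66) and 1.60-fold (1.496 to 1.72). At 8 h the distance was wide again, at 40.3 CPM against 4.07 CPM, or 9.89-fold (6.001 to 17.5). The NCR1 gate held 10.4, 44.4, 116 and 19.03 CPM of RSAD2 from 3, 21, 60 and 5 UMIs.

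In every gate all 3 members were at least 2-fold higher at 4 h than without LPS, where the share of all genes compared was 5.59% in the CD14 gate, 1.08% in the CD3E gate, 2.56% in the MS4A1 gate and 5.46% in the NCR1 gate. The median log2 ratio of the members was 2.55 in the CD14 gate, 3.53 in the CD3E gate, 2.78 in the MS4A1 gate and 4.05 in the NCR1 gate. Medians over all genes compared in those gates lay between -0.20 and 0.02. The members' medians of the CD14 and NCR1 gates were both the MX2 ratio. Without LPS 1 cell held most MX2 UMIs of the CD14 gate, and another held 69 of its 76 RSAD2 UMIs. Leaving those cells out gave larger CD14 ratios, as given below. In the NCR1 gate without LPS, MX1, MX2 and RSAD2 had 2, 1 and 3 UMIs. The order of the gates by these medians can therefore not be read. In the MS4A1 gate RSAD2 was 61.7-fold higher (35.2 to 120), the largest log2 ratio of 9819 genes there, from 12 UMIs without LPS and 1081 at 4 h. MX1 and MX2, which started from a higher level in B cells, were 6.92-fold (6.50 to 7.38) and 6.82-fold (6.37 to 7.31) higher.

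In the CD3E gate the MX genes had the larger ratios. MX1 and MX2 were each 13.4-fold higher at 4 h than without LPS, with intervals of 12.0 to 15.2 and 10.8 to 16.8. RSAD2 was 5.29-fold higher (4.78 to 5.86). At 8 h MX1 and MX2 were still 2.34-fold (2.01 to 2.74) and 2.23-fold (1.66 to 2.99) above the cells without LPS in this gate, and RSAD2 1.41-fold (1.22 to 1.63). Thus 2 of the 3 members were at least 2-fold higher in T cells at 8 h, where 0.707% of 10326 genes were.

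Among the gates the CD14 gate was lowest for all 3 members at 4 h. Neutrophil markers were also found in this gate: of 6 listed, 5 were named in the tables and 4 detected there, and MMP8 was at 0. Their summed level was 12.0, 54.6, 169 and 33.0 CPM, against 0.657 to 3.51 CPM in the CD3E gate. In cells passing no gate it was 80.7, 113, 126 and 127 CPM, above the CD14 gate in every library but that of 4 h. Of the 10 natural killer cell markers 8 were detected in the CD14 gate, at a summed level of 1661, 3144, 2459 and 1554 CPM. That list summed to 326 to 604 CPM in the CD3E gate and 10898 to 13809 CPM in the NCR1 gate. The part of cells of either kind in the members' values of the CD14 gate was not tested. Its cells were also the deepest, with medians of 9665 to 12608 UMIs against 3856 to 5410 in the MS4A1 gate. RSAD2 there was at 11.3 CPM without LPS, and at 1.40 and 31.7 CPM after 2 h and 4 h. At 8 h 0 of 66 cells held a RSAD2 UMI, which allows up to 4.71 CPM. The value without LPS rested on a single cell, which held 69 of the 76 RSAD2 UMIs of the 707 cells, and leaving that cell out gave 1.04 CPM. That cell had 15831 UMIs over 2910 genes, among them 8 of CD14, 174 of ISG15 and 13 of MX1. MX2 in the CD14 gate without LPS was likewise carried by 1 cell with 32 of 42 UMIs, without which the level was 1.49 CPM.

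Shares of cells were compared after each cell was thinned to 1000 UMIs, which left out 284 to 508 cells per library from the shares over all cells. At this depth 10.8% of MS4A1 gate cells held a MX1 UMI without LPS (9.29 to 12.4), and 23.0% (21.3 to 24.8), 45.8% (43.6 to 48.1) and 14.4% (11.7 to 17.4) did after 2 h, 4 h and 8 h. MX2 was found in 9.35%, 10.2%, 38.1% and 14.1% of the same cells, so its share hardly differed between no LPS and 2 h. In the CD3E gate the MX1 share was 1.86%, 2.85%, 17.1% and 4.67%, and the MX2 share 0.385%, 0.935%, 5.69% and 1.67%. RSAD2 was found in 2.93%, 3.18%, 12.0% and 3.27% of CD3E gate cells and in 0.122%, 0.762%, 6.15% and 0.646% of MS4A1 gate cells. Without thinning, 77.8% of MS4A1 gate cells held a MX1 UMI at 4 h and 38.7% of CD3E gate cells did, at medians of 4992 and 4763 UMIs. No class of these cells is known to lack the members, so the lowest gate stands as the nearest measure of background: without LPS, MX1 in 1.49% of thinned CD14 gate cells, MX2 in 0.385% of CD3E gate cells and RSAD2 in 0.122% of MS4A1 gate cells, beside 0 of 58 NCR1 gate cells for MX2.

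**Figure D2:**
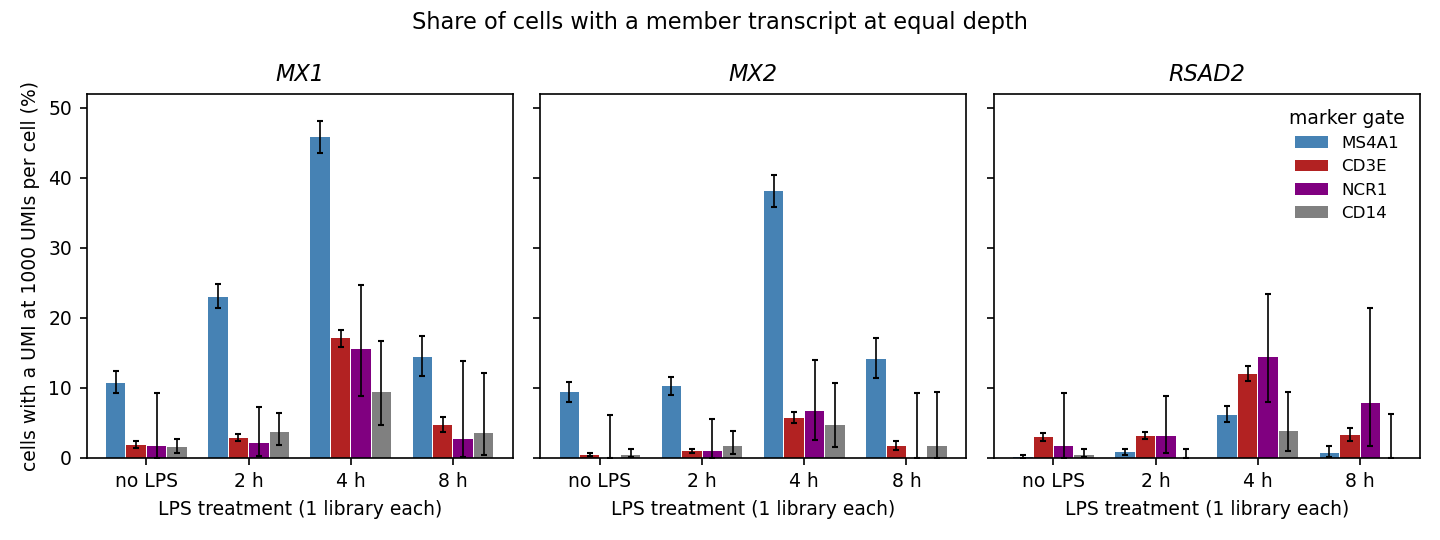
Percent of cells with at least 1 UMI of MX1, MX2 or RSAD2 after thinning every cell to 1000 UMIs, by marker gate and LPS treatment (1 library each); bars start at 0 and lines are exact binomial 95% intervals. MX1 and MX2 bars of the MS4A1 gate reach 45.8% and 38.1% at 4 h, and RSAD2 bars of the CD3E gate stay above those of the MS4A1 gate in every library.

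T cells were then divided by the co-receptors CD4 and CD8 and by WC1, a family of scavenger receptors that marks a large subset of γδ T cells in cattle. This division was chosen after the values were seen, and each cell held UMIs of 1 of the 3 kinds only. It is not complete, as 1466 of 3482 CD3E gate cells without LPS and 1883 of 3857 at 4 h held none of the 3. After thinning, 42 of 1391 such cells without LPS held RSAD2, against 37 of 341 WC1 and 15 of 999 CD4 cells. Of the 3 kinds, RSAD2 was highest in the WC1 cells, at 117, 136, 392 and 156 CPM. CD4 cells had 12.6, 18.4, 124 and 26.5 CPM, and CD8 cells 9.001, 9.76, 56.8 and 7.07 CPM. In the library without LPS the WC1 level was 9.30-fold that of CD4 cells (6.87 to 12.7), 13.0-fold that of CD8 cells (8.48 to 20.7) and 76.4-fold that of the MS4A1 gate (42.5 to 151).

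RSAD2 in WC1 cells was thus present without LPS. Of 343 WC1 cells without LPS, 113 held a RSAD2 UMI, which is 32.9%, against 4.46% of CD4 and 3.82% of CD8 cells, whose median depths were higher. After thinning the WC1 share was 10.9% without LPS (7.76 to 14.6) and 25.6% at 4 h (20.4 to 31.4). The WC1 cells made up 4.39% of all cells without LPS and 3.34% to 4.05% in the LPS libraries, and held 26.2%, 15.1%, 10.6% and 26.9% of all RSAD2 UMIs. Their ratio between 4 h and no LPS was smaller than in CD4 or CD8 cells. It was 3.35-fold (2.80 to 4.03) against 9.87-fold in CD4 cells (7.58 to 13.1) and 6.31-fold in CD8 cells (4.14 to 9.99).

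The MX genes did not share that pattern. MX1 in WC1 cells was at 21.2, 38.0, 423 and 57.9 CPM, beside 24.1, 48.9, 300.1 and 53.0 CPM in CD4 cells, and only at 4 h was the WC1 level above the CD4 level beyond counting error, by 1.41-fold (1.28 to 1.55). MX2 in WC1 cells was at 2.19, 3.52, 60.5 and 2.69 CPM from 3, 5, 82 and 2 UMIs, and stayed below CD4 cells, which had 8.59, 12.3, 124 and 21.6 CPM. CD8 cells had the lowest MX1 of the 3 kinds in every library, at 6.48, 10.3, 120 and 30.2 CPM. Over the 4 libraries the WC1 cells held GATA3 at 403 CPM and ID3 at 117 CPM, transcription factor genes that CD4 cells held at 81.6 and 7.66 CPM. Of the listed T cell markers, CD3D, CD3G and CD247 were higher in WC1 than in CD4 cells, at 165, 49.7 and 336 against 117, 32.6 and 199 CPM. The other listed T cell markers were lower, such as LCK at 29.0 against 212 CPM and CD2 at 12.5 against 127 CPM. Among the 10 B cell markers the summed level of WC1 cells was 560 CPM, of which BLK made up 507 CPM, and 3 of the 10, PAX5, EBF1 and FCRLA, were at 0. CD79A was at 37.8 CPM in WC1, 2.03 CPM in CD4 and 19.8 CPM in CD8 cells.

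**Figure D3:**
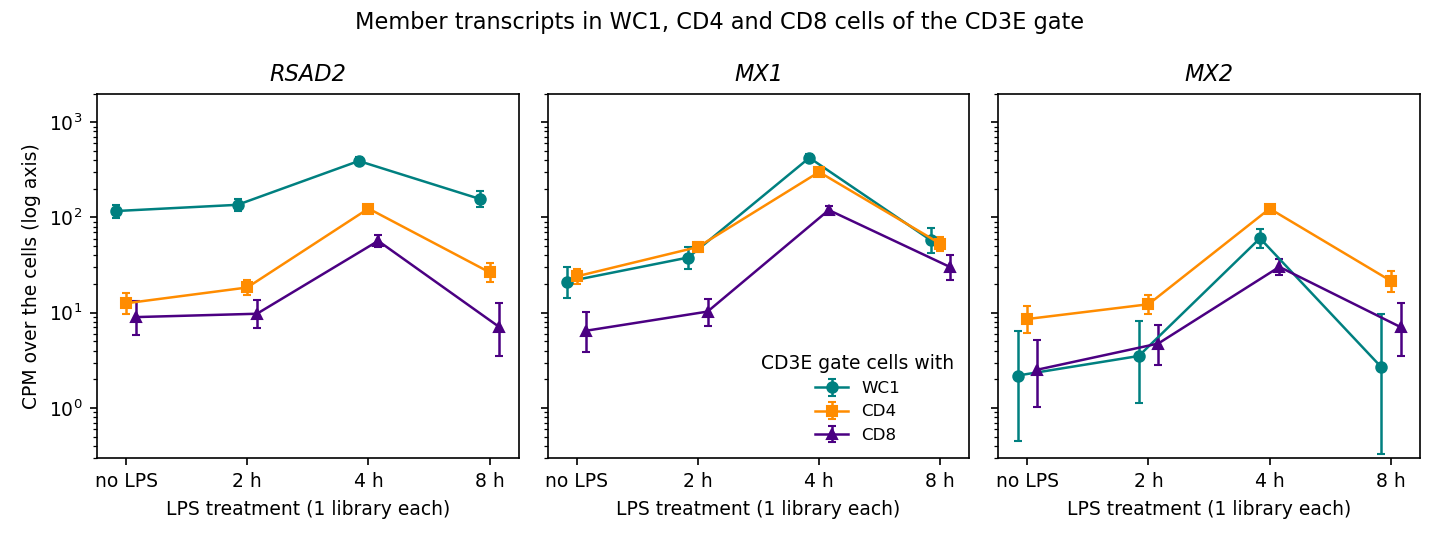
CPM of RSAD2, MX1 and MX2 (log axis) in cells of the CD3E gate with UMIs of WC1 genes, CD4 or CD8 only, by LPS treatment (1 library each), with exact Poisson 95% intervals. RSAD2 lies higher in WC1 cells than in CD4 and CD8 cells in all 4 libraries, whereas MX2 lies lower in WC1 than in CD4 cells.

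Because a UMI counts 1 transcript end whatever the length of the gene, the number of MX1 UMIs per MX2 UMI can be followed between cells and times. In the CD3E gate this number hardly moved, at 3.41 (2.68 to 4.37), 3.80 (3.24 to 4.48), 3.42 (3.23 to 3.62) and 3.59 (2.89 to 4.49). In the MS4A1 gate it was 1.16 (1.06 to 1.27), 3.04 (2.87 to 3.23), 1.18 (1.15 to 1.21) and 1.11 (1.00 to 1.24). B cells at 2 h therefore stood apart, with MX1 2.81-fold higher than without LPS (2.63 to 3.003) and MX2 1.07-fold (0.986 to 1.16). With RSAD2 15.8-fold higher, 2 of the 3 members were at least 2-fold higher in this gate at 2 h, where 2.54% of 9871 genes were.

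B cells were next divided by CD83, a surface protein of activated B cells, again after the values were seen. Cells with a CD83 UMI numbered 509 of 1692, 1688 of 2392, 1300 of 1894 and 346 of 663, and they were deeper than the rest by median UMIs in every library. In CD83 cells MX1 was at 116, 440, 940 and 188 CPM and MX2 at 74.98, 107, 655 and 133 CPM. In cells without CD83 MX1 was at 146, 193, 931 and 195 CPM and MX2 at 139, 182, 1205 and 240 CPM. The number of MX1 UMIs per MX2 UMI at 2 h was 4.12 with CD83 (3.84 to 4.42) and 1.06 without (0.940 to 1.19), whereas without LPS it was 1.55 and 1.05.

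MX1 and MX2 were therefore ordered differently by CD83. MX2 was lower in CD83 cells in all 4 libraries, by 1.85-fold (1.58 to 2.17), 1.70-fold (1.53 to 1.89), 1.84-fold (1.76 to 1.92) and 1.81-fold (1.55 to 2.11). MX1 was 1.25-fold lower in CD83 cells without LPS (1.10 to 1.44), 2.28-fold higher at 2 h (2.09 to 2.49), and within counting error at 4 h and 8 h. RSAD2 at 2 h was at 30.0 CPM with CD83 and 6.07 CPM without, 4.93-fold apart (3.06 to 8.44).

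**Figure D4:**
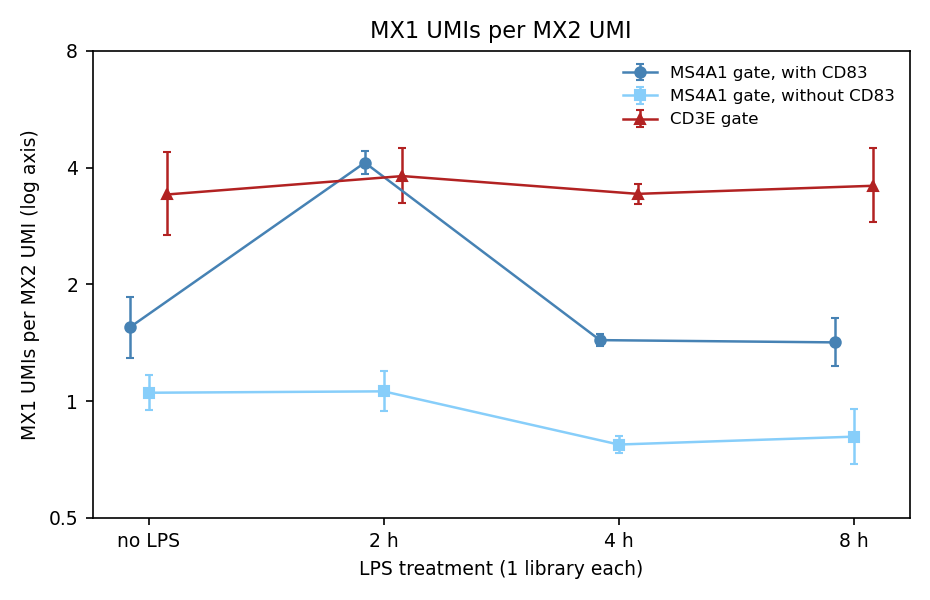
MX1 UMIs per MX2 UMI (log axis) in MS4A1 gate cells with and without a CD83 UMI and in the CD3E gate, by LPS treatment (1 library each), with exact conditional 95% intervals. The value of CD83 cells is 4.12 at 2 h and between 1.42 and 1.55 in the other libraries, while the CD3E gate stays between 3.41 and 3.80.

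The RSAD2 signal of B cells at 2 h came from few cells. Of 2392 MS4A1 gate cells, 51 held the 298 RSAD2 UMIs, and 22 cells with at least 3 UMIs each held 264 of them. In those 22 cells, which were chosen by RSAD2 and had a median of 7581 UMIs against 4241 in cells without RSAD2, MX1 was at 2097 CPM against 348 CPM. IFIT2, another interferon-induced gene, whose protein binds RNA, was at 2134 CPM against 56.7 CPM, and MX2 at 434 CPM against 119 CPM. At 4 h the RSAD2 UMIs of this gate were spread over 327 cells, and 128 cells with at least 3 UMIs held 837 of 1081. Without LPS no MS4A1 gate cell held more than 1 RSAD2 UMI.

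T cells with at least 3 RSAD2 UMIs also had more MX1 than T cells with none, in every library. Of 22 such CD3E gate cells without LPS, 6 held a MX1 UMI and 0 a MX2 UMI, and at 2 h 19 of 59 held MX1 and 2 held MX2. At 4 h 337 of 403 held MX1 and 198 held MX2, where MX1 was also found in 38.7% of all CD3E gate cells, against 6.17% without LPS. MX1 was at 177 CPM in the cells with at least 3 RSAD2 UMIs and 17.5 CPM in those with none without LPS, 118 and 27.9 CPM at 2 h, 818 and 117 CPM at 4 h, and 109.8 and 39.4 CPM at 8 h. In thinned CD3E gate cells at 4 h, 30.5% of those with MX1 held RSAD2, and 8.14% of those without MX1 did. At 2 h these shares were 9.49% and 2.99%, and at 8 h 10% and 2.94%. Without LPS the order was the other way, at 1.59% and 2.95%, with RSAD2 in 1 of 63 cells with MX1. In thinned MS4A1 gate cells at 4 h, 52.9% of those with MX1 held MX2, and 25.6% of those without did. Counts of 1 cell are sparse at this depth, and cells of a library are not replicates, so these shares are a description of the 2 genes in the same cells.

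Over the 16 sums of 4 gates in 4 libraries, the gene with the profile most like MX1 among 9612 genes was MX2, with a Pearson correlation of 0.963 on the scale of log2(CPM + 1), and MX1 was likewise the nearest to MX2. The next nearest to MX1 were DHX58 (0.926), which encodes the RNA sensor LGP2, EIF2AK2 (0.904), which encodes the RNA-activated kinase PKR, PNPT1 (0.882) and ENSBTAG00000022489 (0.854). The next nearest to MX2 were DHX58 (0.912), ZBP1 (0.902), a sensor of Z-form nucleic acid, EIF2AK2 (0.891) and CHCHD2 (0.869). RSAD2 had other neighbours: HERC6 (0.854), of a ubiquitin ligase family, TOX4 (0.839), ISG20 (0.821), an exonuclease, XRN1 (0.819) and SP140L (0.794). Its own correlation was 0.453 with MX1 and 0.368 with MX2. The 16 sums share libraries, depth and gates, and no test was made on these values. Each sum weighs the same, although some rested on few UMIs. RSAD2 had 5 and 0 UMIs in the CD14 gate at 2 h and 8 h, and 3 and 5 in the NCR1 gate without LPS and at 8 h. In the CD14 gate without LPS 1 cell held 69 of its 76 UMIs. MX2 had 1 UMI in the CD14 gate at 8 h and 1 in the NCR1 gate without LPS.

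CMPK2, which neighbours RSAD2 in the genome and whose product can supply the substrate of viperin, had few UMIs. It was at 0.675, 0.668, 4.31 and 0.961 CPM over all kept cells, from 26, 32, 173 and 16 UMIs. In the MS4A1 gate at 2 h, where RSAD2 was at 24.2 CPM, CMPK2 was at 0.487 CPM.

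The rest of the interferon pathway was examined in fixed lists of genes, ordered from ligand to target. Of 18 type I and type III interferon genes listed, 8 were named in the tables, among them IFNB3, IFNAG and IFNK. None of the 8 had a UMI in any kept cell of any library. The other listed genes, most interferon α and β genes among them, were not named there, so their transcripts could not be counted. Of 9 receptor and kinase genes, none was at least 2-fold higher or lower at any time. Of all genes compared, 0.938%, 1.28% and 0.492% were higher at 2 h, 4 h and 8 h, and 2.46%, 4.26% and 2.92% were lower. A count of 0 among 9 genes thus does not set them apart. JAK1, the kinase bound to the interferon receptors, was at 648 CPM without LPS and 792 CPM at 4 h, and the receptor chain IFNAR2 at 60.3 and 73.4 CPM. IFNGR1 and IFNGR2, chains of the interferon γ receptor, had log2 ratios of -0.37 and -0.30 at 4 h, and IL10RB one of -0.05. IFNLR1, the specific chain of the type III receptor, had a log2 ratio of 0.62 at 4 h from 0.286 and 0.971 CPM, a low gene whose fold in CPM was 3.40 (1.71 to 7.36).

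Of the 9 transcription factor genes, 2 were at least 2-fold higher at 4 h, as were 1.28% of all genes compared. None was at 2 h or 8 h, where 0.938% and 0.492% of all genes compared were. IRF7, the factor that amplifies interferon gene transcription, was at 58.4, 94.6, 237 and 85.2 CPM. STAT2 was at 20.2, 24.6, 44.2 and 33.6 CPM. IRF1 (207 CPM without LPS and 286 CPM at 4 h) and IRF9 (130 and 195 CPM) stayed under that limit. Of 5 brakes on the pathway, USP18, a protease that removes ISG15 and blocks the receptor, was at least 2-fold higher at 4 h, at 62.2, 88.0, 200.2 and 76.9 CPM over the 4 libraries. PTPN2, PIAS1 and SOCS1 had log2 ratios of -0.08, 0.17 and 0.22 at 4 h.

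Of 43 other interferon-induced effectors with enough UMIs, 6 were at least 2-fold higher at 2 h, and 35 and 4 were at the later times. The shares of all genes compared were 0.938%, 1.28% and 0.492%. These effectors had median log2 ratios of 0.27, 1.66 and 0.59, beside the members' 0.72, 3.28 and 0.84. ISG15, a ubiquitin-like modifier, had the largest ratio of the list at 4 h, 4.17, followed by IFIT3 at 3.84 and OAS1Y, an oligoadenylate synthase gene, at 3.40. EPSTI1 had a log2 ratio of 1.80, and SAMHD1, a dNTP hydrolase with 62853 UMIs in all, one of 0.24. The 4 at 8 h were ISG15, CXCL10, IFITM1 and IFITM3. SHISA5 was at least 2-fold lower at that time, as were 2.92% of all genes compared. IFITM1 and IFITM3 differed from the members in time course, with log2 ratios of 1.07 and 1.24 at 4 h and 1.18 and 1.04 at 8 h.

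Of 5 genes for host partners of viperin and tetherin, none was at least 2-fold higher at any time, beside 0.938%, 1.28% and 0.492% of all genes compared, so that a count of 0 among 5 genes does not set them apart. FDPS, the farnesyl diphosphate synthase that viperin binds, was at 51.9 CPM without LPS and 52.9 CPM at 4 h. IRAK1 and CIAO1 had log2 ratios of -0.31 and 0.21 at 4 h. LILRA4, the receptor for tetherin on plasmacytoid dendritic cells in humans, was at 75.7, 37.7, 24.3 and 42.4 CPM and was at least 2-fold lower at 4 h, as were 4.26% of all genes compared. At 4 h it stood at 580 CPM in the CD14 gate and at 1.17 CPM in the CD3E gate, and the CD14 gate went from 9.04% of cells without LPS to 1.58% at 4 h. The part of that smaller share of cells in the level over all cells was not tested.

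**Figure D5:**
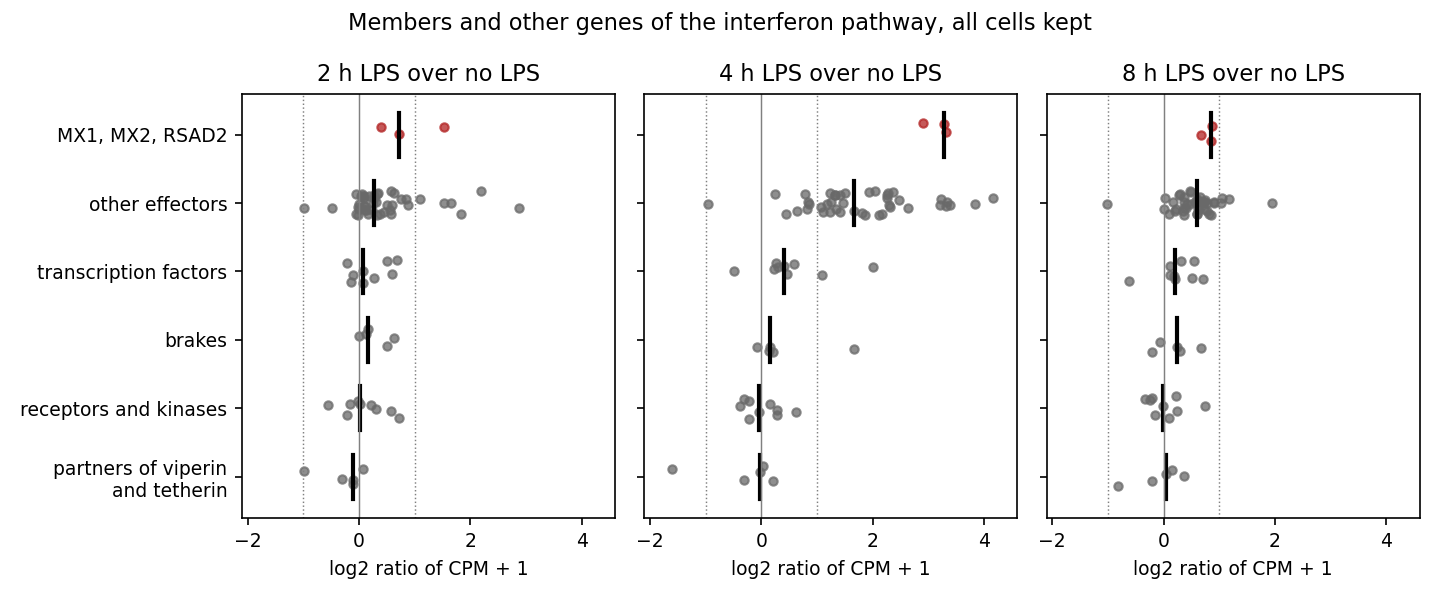
Log2 ratio of CPM + 1 over the library without LPS for MX1, MX2 and RSAD2 (red) and for the genes of each pathway list with at least 20 UMIs over the 2 libraries compared (grey), all kept cells added up; black bars are list medians and dotted lines mark a 2-fold difference. At 4 h the members lie between 2.90 and 3.32, above the median of 1.66 of the other effectors, while receptors and kinases lie near 0.

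The scATAC-seq tables gave counts per gene and nucleus by a rule not given in the sources used here, so that they cannot be placed on a promoter or gene body. The library without LPS held 975012 counts with a median of 213 per nucleus, against 11957904 to 30250143 counts and medians of 2250 to 5205 in the LPS libraries. Between 88.7% and 93.8% of the values above 0 were even, so intervals were computed from the nuclei that held a count. MX2 had the highest accessibility count of the members and was level over the libraries, at 130.3, 123, 146 and 140.2 CPM. RSAD2 was at 23.6, 70.8, 76.5 and 61.3 CPM. MX1 was lowest, at 15.4, 12.0 and 6.07 CPM, and was not listed at 8 h.

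RSAD2 was 3.003-fold higher at 2 h than without LPS in CPM, and 2.96-fold higher in nuclei with a count, scaled by the number of gene and nucleus pairs with a count in the library (1.72 to 5.58), from 13 of 3121 and 765 of 4172 nuclei. It was the only member at least 2-fold higher in that comparison, and 9.22% of 11374 genes were. For MX2 the same comparison in nuclei gave 0.855-fold (0.669 to 1.11) and for MX1 0.926-fold (0.476 to 2.06). From 2 h to 4 h, both well covered libraries, no member was at least 2-fold higher or lower, as 0.457% and 1.46% of 13133 genes were, and the median log2 ratio of the members was 0.11. MX1 was at 0.505 of its 2 h CPM, with 166 of 4172 nuclei at 2 h and 78 of 3231 at 4 h, or 0.589-fold in nuclei (0.444 to 0.775). In the same step MX1 RNA was 3.48-fold higher and MX2 RNA 7.54-fold higher, while MX2 accessibility was 1.09-fold in nuclei (1.00 to 1.19). From 4 h to 8 h the 2 members listed had a median log2 ratio of -0.19, with RSAD2 at 0.855-fold in nuclei (0.745 to 0.980) and MX2 at 1.02-fold (0.918 to 1.13), and none passed 2-fold in either direction, as 0.829% and 5.65% of 11460 genes did.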

How the data were processed

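Both assays used 1 library per treatment of blood pooled from 4 animals. The scRNA-seq tables hold unnormalized UMI counts, as deposited, of each gene in each barcode; the submitters' processing notes name Cell Ranger and the ARS-UCD1.2 (bosTau9) build. The scATAC-seq tables, deposited as whole-number counts of each gene in each nucleus, follow a counting rule not given in the sources used here. For scRNA-seq, barcodes were kept that had 200 to 3000 genes, a minimum of 200 UMIs and less than 20% mitochondrial UMIs, which removed 419 to 619 barcodes per library for more than 3000 genes; no doublet caller was run. All scATAC-seq barcodes were used. UMIs were added over the cells of a library or gate and scaled to CPM. Log2 ratios used a pseudocount of 1 and so understate the change of low genes, and comparisons across genes used genes with at least 20 UMIs in the 2 libraries together. Intervals at 95% were exact Poisson for CPM, exact binomial for shares and exact conditional for ratios; UMIs of a cell are not independent of each other. A count of 0 was given a limit of 3 counts. With 1 library per treatment there was no test. The steps were tested on simulated counts.

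The members, lists, gates and parts of gates were chosen with earlier results of these data known. The plan named 4 members; BST2 was not found and its place was left empty, so medians are over 3 genes (2 in the scATAC-seq comparison of 8 h with 4 h). Genes named besides the members were the 5 of highest correlation with each member among genes with at least 200 UMIs and, of each list, the 3 with most UMIs and the 3 with the largest ratio at 4 h. CMPK2, CD83, WC1, GATA3, ID3, BLK, CD2, CD3D, CD3G, CD79A, CD247, LCK, IFIT2, IFITM1, IFITM3, CXCL10 and SHISA5 were named after their values were seen. A gene that the rule names is not reported here. Gene order was read from RefSeq for assembly ARS-UCD2.0, another build than that of the files, so no coordinates are given. Alternatives were TMM scaling (edgeR 4.0.16) and DESeq2 1.42.0 size factors, other limits on cells, genes and gates, equal weight per cell, a pseudocount of 0.1 and a fixed cell makeup. Python 3.11.15, numpy 2.4.6, scipy 1.17.1, pandas 2.3.3 and R 4.3.3 were used.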

Additional observations from a re-analysis of the deposited data

Results flagged for a closer look

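RSAD2 differed in direction between gates at 2 h against no LPS. In the CD14 gate it was at 0.124 of its level without LPS (0.0392 to 0.303), whereas it was 1.22-fold higher in the CD3E gate (1.09 to 1.38), 15.8-fold in the MS4A1 gate (8.93 to 31.0) and 4.27-fold in the NCR1 gate (1.27 to 22.4). With 1 library per treatment this difference was not tested. In the CD14 gate it rested on 1 cell of the library without LPS: the levels were 11.3 CPM without LPS and 1.40 CPM at 2 h with that cell, and 1.04 CPM without LPS when it was left out. CD14 gate cells numbered 707 without LPS and 308 at 2 h, with 76 and 5 RSAD2 UMIs.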

How the results depend on the processing

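The members' median log2 ratio over all cells stayed positive at every time under all alternatives run. Weighting the classes as without LPS gave 0.55 in place of 0.72 at 2 h, 3.05 in place of 3.28 at 4 h and 0.69 in place of 0.84 at 8 h, and equal weight per cell gave 3.04 at 4 h and 0.64 at 8 h. At 8 h it was 0.72 with TMM and 0.72 with DESeq2 size factors, which shift every ratio there by -0.13 and -0.12, and 0.99 without an upper limit on genes or with every barcode, where MX1 became the 1 member at least 2-fold higher instead of 0. In the MS4A1 gate at 4 h TMM gave 2.92 in place of 2.78, with a shift of 0.14. Gating NCR1 cells at 2 UMIs left 7 cells without LPS and 30 at 4 h and moved the members in different directions, with log2 ratios at 4 h of 3.03 for MX1 in place of 5.01, 6.54 for MX2 in place of 4.05 (the median in both settings) and 6.62 for RSAD2 in place of 3.35; MX2 and RSAD2 had 0 UMIs in those 7 cells, so their ratios depend on the pseudocount. In the CD14 gate both scalings shift the 2 h ratios by 0.48 and 0.58. Of 81 values for medians and counts, 69 differed by less than the counting interval, or by less than 1.5 times for counts. Among them were the NCR1 gate median, whose counting interval is wide, and the scATAC-seq medians. For the latter the interval of 1 member in nuclei was widened around the median, so that it is a loose measure. Chosen after seeing the data, leaving out the highest cell of each member in the CD14 gate gave log2 ratios at 4 h of 3.13 for RSAD2 in place of 1.41, and 3.84 for MX2 in place of 2.55, and the WC1 over CD4 ratio of RSAD2 without LPS stayed between 8.54 and 10.1. Counts of 0 to 5 UMIs in the NCR1 and CD14 gates limit what those gates can show. No replicate could be left out, and no paired analysis was possible because each treatment had 1 library.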
